A study of Homo sapiens with 12 samples.

Results

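Aminoacyl-tRNA synthetases are the enzymes that join each amino acid to its transfer RNA (tRNA). Probes for 36 of these genes were taken by gene symbol from the expression arrays, 20 for enzymes of the cytosol and 16 for enzymes of mitochondria, whose symbols end in 2. Of the 20 cytosolic genes 18 had an annotated probe, and the other 2, CARS among them, were not analysed here. All 16 mitochondrial genes had one. The 34 genes were measured by 39 probes, of which 36 were detected well enough to be tested, and all 34 genes kept a tested probe, detected on all 12 arrays. They were 34 of 10767 genes tested in the series. Symbols are those of the array, and 18 of the cytosolic genes now carry a 1 at the end of the name, as AARS1.

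The cells were MDA-MB231, an established estrogen receptor-negative breast cancer line, and the study asked how loss of DOT1L activity changes gene expression. DOT1L is the enzyme that methylates histone H3 at lysine 79. Each of 6 groups held 2 Illumina HT-12 v4 arrays, which the labels call biological replicates of the line. In the siRNA-1 group cells were transfected with 10 nM of an siRNA against DOT1L and taken at 7 days. Compound 1 (EPZ004777), a DOT1L inhibitor, was given at 1 and 5 μM for 14 days. Compound 2 (SYC-522), another DOT1L inhibitor, was given at 2 and 10 μM for 14 days. The control group received 0.1% DMSO for 14 days, so siRNA-1 against control also holds the difference in time and in transfection, and these cannot be told apart from DOT1L silencing. No array of cells with an unrelated siRNA was analysed here.

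Protein synthesis draws on synthetases in both compartments, since mitochondria translate their own few genes with a separate set of tRNAs and enzymes. Most human synthetases have one gene for each compartment, while GARS and KARS each serve both. Several cytosolic synthetases sit together in a large multi-synthetase complex. Many cytosolic synthetase genes are known targets of ATF4, the transcription factor that cells make when amino acids run short or the endoplasmic reticulum is stressed. ATF4 binds, with a C/EBP partner, a composite site that carries the core TGATGNAA.

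The sites below are shown because several of the genes that changed carry this core close to the start of transcription. The promoter windows came from RefSeq (GRCh38.p14) and ran from 250 bases before to 50 bases after each start. Windows were found for 30 of the 36 genes and not for 6, among them LARS, VARS and YARS. CARS, which has no value here, also held TGATGCAA, from 2 bases before its start, and is not shown. Each line gives 30 bases of the strand of the gene, 5′ to 3′, with the match in capitals. Both strands were searched, and all matches printed here but those of NARS and YARS2 show the reverse complement of the core.
MARS: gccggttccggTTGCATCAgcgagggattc
GARS: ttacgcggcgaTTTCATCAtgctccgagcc
AARS: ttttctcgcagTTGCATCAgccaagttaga
IARS: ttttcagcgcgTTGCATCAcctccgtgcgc
TARS: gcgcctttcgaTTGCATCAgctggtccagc
NARS: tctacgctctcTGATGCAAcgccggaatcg
YARS2: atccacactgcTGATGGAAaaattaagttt

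The MARS stretch lies at chr12:57488053-57488082 on the plus strand and its match begins 4 bases before the start. The GARS stretch, in 1 of its 2 windows, lies at chr7:30594834-30594863 on the plus strand and its match begins 33 bases before it. AARS (chr16:70289675-70289704, minus strand) has its match 187 bases before the start and IARS (chr9:92293692-92293721, minus strand) 13 bases before it. In TARS (1 of 2 windows, chr5:33440956-33440985, plus strand) and NARS (chr18:57621804-57621833, minus strand) the match lies after the start, its first base being base 3 and base 15 of the transcript. That of YARS2 (chr12:32756076-32756105, minus strand) begins 197 bases before the start. The full core TGATGCAA stood in 1.08% and TGATGNAA in 4.46% of the 27305 genes with such windows. A match of letters is a description and was not shown here to be bound. The windows of SARS, WARS and EPRS, described next, held no match.

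The array had 1 probe for DOT1L itself. It gave a normalised signal of 46.3 and 38.3 with siRNA-1, against 44.1 and 40.8 in control, and was detected on 4 of the 12 arrays. Its log2 fold change of -0.01 (SE 0.15, adjusted p = 0.977) leaves the degree of silencing unmeasured. Here and below the normalised signal is the background-corrected bead brightness, with a fixed offset of 16, scaled so that all arrays share the median of their well detected probes. A gene is called where limma gave an adjusted p below 0.05 over all tested probes (Benjamini-Hochberg), and is represented by its brightest tested probe. Replicate arrays correlated at r = 0.991 to 0.994. The line's markers VIM, CD44, AXL, CAV1 and MSN were detected on all 12 arrays, and of ESR1, PGR, CDH1, FOXA1 and GATA3 the first 4 were detected on none and GATA3 on 2. Of 5 markers of other cell types, PTPRC, CD3E and HBB were detected on no array, ALB on 12 and PECAM1 on 11. With siRNA-1 the endothelial gene PECAM1 rose (log2 1.85, adjusted p = 0.000316), and the liver gene ALB and the line marker AXL fell (log2 -0.70 and -0.72). PECAM1 was also called higher with compound 1 at 5 μM (1.12) and with compound 2 at 2 and 10 μM (1.08 and 1.21). Summed over these 5 markers the signal was 343 to 365 with siRNA-1, against 258 to 286 in control, and any part of it in the results below was not tested. As in any bulk sample, fewer cells of a kind and less RNA per cell cannot be told apart.

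With siRNA-1 the cytosolic synthetases fell as a block of 9 genes out of 18 tested, and none rose. Of all genes tested, 5.86% were called lower and 5.99% higher in this comparison. The median log2 fold change of the 18 was -0.57, with 17 of 18 below 0, beside -0.03 over all genes, of which 54.2% were below 0. In 16 of the 18 both siRNA-1 arrays lay below both control arrays, which held for 31% of all genes. SARS and WARS, which charge serine and tryptophan, fell most, and MARS and YARS, for methionine and tyrosine, followed at 0.435 and 0.476 times control.

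SARS had a normalised signal of 558 and 511 with siRNA-1, against 1530.5 and 1474 in control. Both siRNA-1 arrays thus lay far below both control arrays, and the level was 0.356 times that of control (log2 -1.49, SE 0.12, adjusted p = 1.99e-05). WARS, the tryptophan enzyme, had 1198 and 1089 with siRNA-1, against 2849.9 and 2744 in control. It stood at 0.408 times control, again with no overlap (log2 -1.29, SE 0.13, adjusted p = 6.73e-05). A further tested probe of WARS gave 732 and 663 with siRNA-1, against 2019 and 1988 in control, and fell by 1.52 on the log2 scale (adjusted p = 2.49e-05). WARS is also known as an interferon-induced gene. Of 11 interferon-stimulated genes tested, 7 were called higher with siRNA-1 and none lower (median log2 0.84), where 5.99% of all genes were called higher. IFIT1 (1.98) and GBP2 (1.37) led them, and any link to the level of WARS was not tested.

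MARS, which charges both the initiator and the elongator tRNA with methionine, had 1043 and 925 with siRNA-1, against 2097 and 2434 in control (log2 -1.20, SE 0.13, adjusted p = 0.000124). YARS, the tyrosine enzyme, had 2013 and 2013 with siRNA-1, against 3943 and 4541 in control (log2 -1.07, SE 0.12, adjusted p = 0.000214). In both genes the siRNA-1 arrays were below the lower control array by a wide margin. GARS, which supplies glycyl-tRNA to the cytosol and to mitochondria, had 4806 and 4153 with siRNA-1, against 7713 and 10188 in control (log2 -0.99, SE 0.15, adjusted p = 0.00133). The 2 control arrays of GARS differed by more than the siRNA-1 arrays did, yet the groups did not overlap.

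AARS, for alanine, had 2937 and 2602 with siRNA-1, against 4635 and 5544 in control (log2 -0.87, SE 0.13, adjusted p = 0.00119). IARS, for isoleucine, had 1889 and 1737 with siRNA-1, against 3242 and 3383 in control (log2 -0.87, SE 0.11, adjusted p = 0.0005). EPRS, a fused enzyme that charges both glutamate and proline, had 2651 and 2680.1 with siRNA-1, against 4247 and 4709.9 in control (log2 -0.75, SE 0.12, adjusted p = 0.00237). These 3 genes stood at 0.545, 0.547 and 0.596 times control, with every siRNA-1 array below every control array. LARS, the leucine enzyme, had 892 and 1016 with siRNA-1, against 1309 and 1338 in control, the smallest called fall (log2 -0.48, SE 0.12, adjusted p = 0.0242). Its call was lost when any 1 of the 4 arrays was left out (log2 between -0.57 and -0.38 over all alternatives), whereas the other 8 kept theirs under all 15 alternatives tried.

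**Figure D1:**
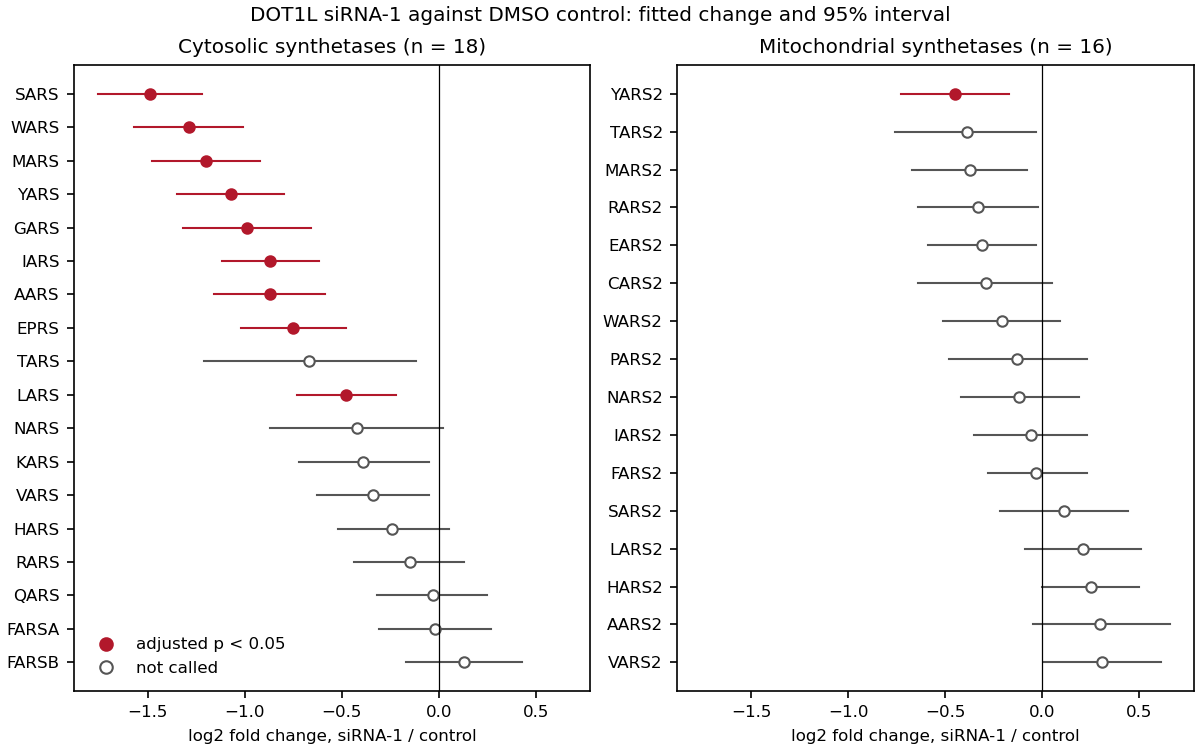
Log2 fold change of each tested synthetase with siRNA-1 over control (points) and its 95% interval (bars), cytosolic genes on the left (n = 18) and mitochondrial genes on the right (n = 16). Filled red points passed an adjusted p below 0.05: 9 cytosolic genes from SARS (-1.49) to LARS (-0.48), and YARS2 (-0.45).

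The other 9 cytosolic genes did not pass. TARS, the threonine enzyme, had 1209.7 and 1082 with siRNA-1, against 1469.7 and 2241 in control, with log2 -0.67 and a 95% interval of -1.21 to -0.12 (adjusted p = 0.119). NARS, for asparagine, had 1037 and 1021 with siRNA-1, against 1424 and 1337 in control (log2 -0.42, adjusted p = 0.23). Neither gene overlapped between the groups, and their standard errors (0.25 and 0.20) were the largest of the 18. KARS and VARS, for lysine and valine, had log2 -0.39 and -0.34 (adjusted p = 0.14 for each). HARS, for histidine, had -0.24 and RARS, for arginine, -0.15. The glutamine enzyme QARS (-0.03), and FARSA and FARSB (-0.02 and 0.13), the alpha and beta subunits of the phenylalanine enzyme, lay nearest to 0. For QARS the 95% interval of the difference ran from -0.32 to 0.25 and for FARSB from -0.17 to 0.43.

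**Figure D2:**
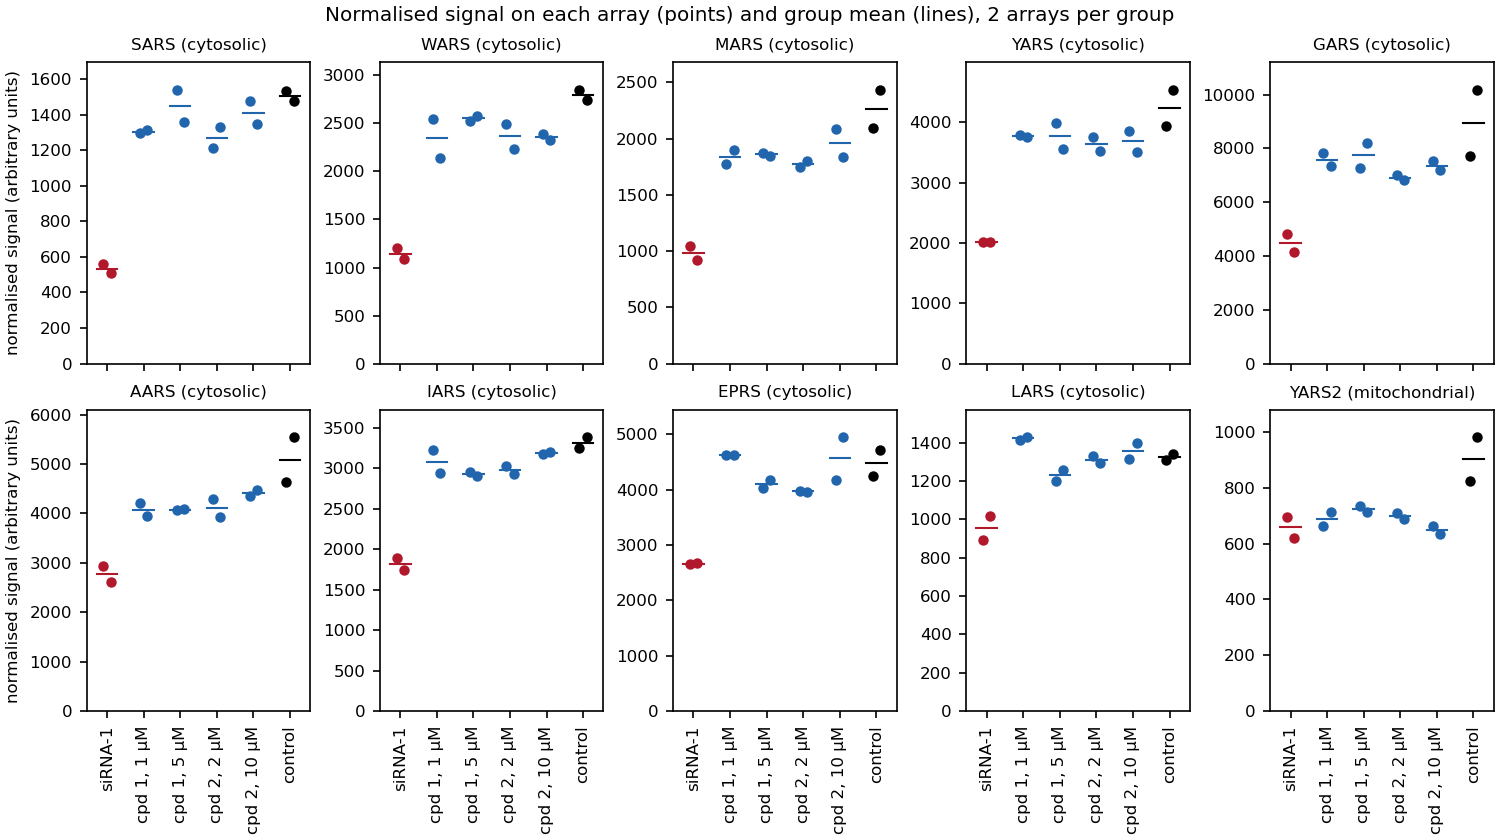
Normalised signal (arbitrary units, axis from 0) on each array for the 9 cytosolic genes and 1 mitochondrial gene called lower with siRNA-1. Points are the 2 arrays of a group and lines their mean, for siRNA-1 (red), the 4 compound groups (blue) and control (black). In the 9 cytosolic genes both siRNA-1 arrays lie below all other arrays, while in YARS2 (697 and 619.7) they overlap the compound arrays (634 to 734).

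The genes were grouped by what is known of them. All 9 called genes were among the 12 tested cytosolic synthetases listed as ATF4 targets, a list drawn up from general knowledge with earlier results of these arrays known, so that its count is no independent evidence. The 12 had a median of -0.87 and 12 of 12 were below 0. The 3 listed genes without a call were NARS, TARS and VARS. Of the 6 tested cytosolic genes outside the list, limma called none (median -0.09, from -0.39 to 0.13), and KARS alone had an unadjusted p below 0.05. Of the tested members of the multi-synthetase complex 4 of 7 were called (EPRS, IARS, LARS and MARS, median -0.48), and 5 of 11 genes outside it (AARS, GARS, SARS, WARS and YARS, median -0.67). By the class of the catalytic domain, with the fused EPRS counted by its class I glutamate part although its proline part is class II, 6 of 9 class I and 3 of 9 class II genes were called, with medians of -0.75 and -0.42. None of these divisions was tested as a difference.

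Matches occurred among called and uncalled genes. Of the 9 called cytosolic genes 7 had a window, and 4 of these (AARS, GARS, IARS and MARS) held TGATGNAA, 3 of them as TGATGCAA. Of the 9 that were not called 8 had a window, and 2 (NARS and TARS) held TGATGCAA. SARS and WARS, which fell most, had no match in either of their 2 windows each.

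Among the 16 mitochondrial synthetases 1 was called lower with siRNA-1 and none higher, a share close to the 5.86% of all genes called lower. Their median log2 fold change was -0.12, with 11 of 16 below 0, beside -0.03 over all genes. The median was -0.02 without siRNA-1 replicate 2 and -0.08 without control replicate 2, with 9 of 16 below 0 in each case. YARS2, which charges mitochondrial tRNA with tyrosine, had 697 and 619.7 with siRNA-1, against 824 and 982 in control. The siRNA-1 arrays lay below both control arrays (log2 -0.45, SE 0.13, adjusted p = 0.0447). The call was close to the threshold. It was lost without control replicate 2 and without either siRNA-1 array, and kept in 4 of 15 alternatives, with log2 between -0.58 and -0.32. The remaining 15 genes ranged from -0.39 for TARS2, the threonine enzyme of mitochondria, to 0.31 for VARS2, the valine enzyme. At an unadjusted p below 0.05 the 16 held 5 lower and 2 higher genes, and the 18 cytosolic ones 12 lower and 0 higher, where 14.5% of all genes were lower and 12.2% higher.

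Of the called cytosolic genes 7 have a measured mitochondrial counterpart of the same name, and these pairs can be read side by side, with no test between them. For serine, SARS had -1.49 and SARS2 0.11, with 512 and 460.4 for SARS2 with siRNA-1, against 402 and 500.3 in control. For tryptophan, WARS had -1.29 and WARS2 -0.21. For alanine, AARS had -0.87 and AARS2 0.30, where AARS2 read 389 and 319.6 with siRNA-1, against 251 and 326 in control. None of these 3 mitochondrial genes was called, nor were IARS2 (-0.06) and LARS2 (0.21). Methionine gave -1.20 for MARS and -0.37 for MARS2 (adjusted p = 0.108), and a weaker probe of MARS2 gave -0.14. Tyrosine was the only amino acid for which both genes, YARS and YARS2, were called. The pairs were taken because the cytosolic gene was called. Among pairs with no call, arginine had -0.15 for RARS and -0.33 for RARS2, and threonine -0.67 for TARS and -0.39 for TARS2. The valine and histidine pairs went opposite ways. VARS read 1437 and 1352 with siRNA-1, against 1569 and 1979.6 in control, and VARS2 716 and 721, against 524 and 641. HARS read 1373 and 1379, against 1524 and 1725, and HARS2 691 and 718, against 580.3 and 602. NARS2 (185 and 160.4, against 173 and 203) and FARS2 (626 and 599, against 598 and 649) overlapped with control. The called EPRS has its mitochondrial counterparts in EARS2, for glutamate, and PARS2, for proline. EARS2 read 266 and 277 with siRNA-1, against 317 and 356 in control, and PARS2 83 and 72, against 87.3 and 81.7. CARS2, whose cytosolic counterpart had no probe, read 131 and 147, against 172 and 169. EARS2, PARS2 and CARS2 were not called.

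Neither compound changed the level of any tested synthetase past the threshold. With compound 1 at 1 μM 0 of 18 cytosolic and 0 of 16 mitochondrial genes were called, where 3.73% of all genes were called higher and 2.02% lower. At 5 μM the counts were again 0 and 0, where 2.02% of all genes were higher and 0.474% lower. With compound 2 at 2 μM none was called, where 2.8% of all genes were higher and 1.29% lower, and at 10 μM none, where 2.95% were higher and 0.799% lower. At an unadjusted p below 0.05 compound 1 at 1 μM had 5 cytosolic and 3 mitochondrial genes lower and none higher, where 12.8% of all genes were lower and 12.4% higher. At 5 μM it had 2 cytosolic and 4 mitochondrial genes lower and none higher, where 10.6% of all genes were lower and 9.22% higher. Compound 2 at 2 μM had 6 cytosolic and 3 mitochondrial genes lower and none higher, where 13.5% of all genes were lower and 11.3% higher. At 10 μM it had 3 of either set lower and none higher, where 11% of all genes were lower and 11.2% higher.

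The medians with the compounds lay below 0, but by an amount that differed between the 2 control arrays. The cytosolic median was -0.19 and -0.14 for compound 1 at its lower and higher dose, and -0.21 and -0.20 for compound 2. The medians over all genes were -0.03, -0.05, -0.04 and -0.02. For the mitochondrial genes the medians were -0.13, -0.12, -0.14 and -0.12 in the same order. Without control replicate 2 the cytosolic medians were -0.12, -0.07, -0.12 and -0.07, and the mitochondrial ones -0.01, -0.09, -0.05 and -0.00. Without control replicate 1 they were -0.25, -0.23, -0.28 and -0.26 for the cytosolic and -0.17, -0.21, -0.23 and -0.21 for the mitochondrial genes. With centring on all probes the cytosolic medians were -0.07, -0.04, -0.09 and -0.15 and the mitochondrial ones -0.01, -0.02, -0.01 and -0.08. The medians of both sets stayed at or below 0 and moved by more than 1.5 times in several of these cases. The 95% intervals of the 18 cytosolic genes reached from -0.74 to 0.36 with compound 1 at 1 μM and from -0.66 to 0.69 at 5 μM. With compound 2 they reached from -0.69 to 0.52 at 2 μM and from -0.75 to 0.53 at 10 μM. A change of the size seen for SARS, WARS or MARS with siRNA-1 lies outside these ranges.

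SARS serves as 1 example over all arrays. Compound 1 gave 1294 and 1312 at 1 μM, then 1540.4 and 1358 at 5 μM. Compound 2 gave 1213 and 1329 at 2 μM, then 1475 and 1346 at 10 μM, against 1530.5 and 1474 in control. The compound arrays of SARS thus lay slightly below the control arrays at 1 and 2 μM and overlapped them at 5 and 10 μM. Its log2 fold changes were -0.21, -0.05, -0.24 and -0.09, none of them called. Over the 18 cytosolic genes, both arrays of a compound group lay below both control arrays in 10, 10, 13 and 10, in the same order. They lay above both in 1, 1, 0 and 1. The shares of all genes for these counts are not given here. The lowest adjusted p of a cytosolic gene with a compound belonged to HARS with compound 2 at 10 μM, which read 1193 and 1274, against 1524 and 1725 in control (log2 -0.40, SE 0.13, adjusted p = 0.113). HARS did not overlap between these groups, and its values with siRNA-1 (1373 and 1379) lay above them. Among mitochondrial genes YARS2 came closest with compound 2 at 10 μM, at 663 and 634, against 824 and 982 in control (log2 -0.47, SE 0.13, adjusted p = 0.0669). MARS2 and FARS2, for methionine and phenylalanine, came next with compound 2 at 2 μM (log2 -0.45, adjusted p = 0.0816, and -0.38, adjusted p = 0.0852).

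**Figure D3:**
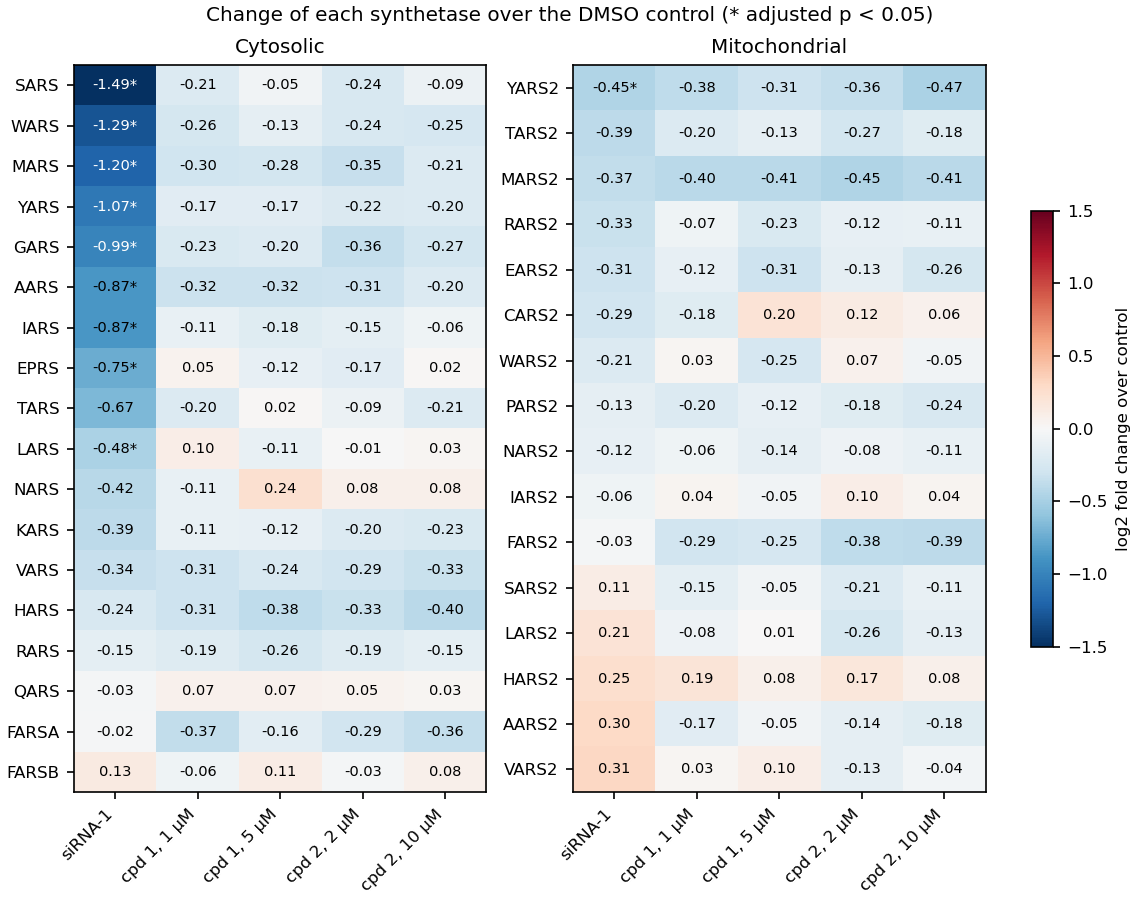
Log2 fold change over control of each synthetase with siRNA-1 and with each dose of compounds 1 and 2 (cpd 1, cpd 2), cytosolic genes on the left and mitochondrial on the right, ordered by the siRNA-1 value. Asterisks mark an adjusted p below 0.05, which occur in the siRNA-1 column alone: 9 cytosolic genes and YARS2.

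The doses of the 2 compounds differ, so their values stand side by side without a comparison. AARS had -0.32 and -0.32 with compound 1 at 1 and 5 μM and -0.31 and -0.20 with compound 2 at 2 and 10 μM. MARS had -0.30 and -0.28 with compound 1 and -0.35 and -0.21 with compound 2. Within each compound no synthetase differed between doses. Compound 1 at 5 over 1 μM gave 0 of 34 called and compound 2 at 10 over 2 μM 0 of 34, and 0% and 0% of all genes were called in these comparisons. At an unadjusted p below 0.05 the first held 1 gene, CARS2 (log2 0.38), where 2.79% of all genes were higher and 3.65% lower. The second held 0, where 1.99% were higher and 0.78% lower. The half-width of the 95% interval was 0.28 at the median of the cytosolic and 0.30 at the median of the mitochondrial genes.

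Set against the mean of the 4 compound groups in place of control, siRNA-1 had the same 9 cytosolic genes lower and none higher. Of all genes 11.8% were called lower and 10.9% higher in this comparison. SARS was lower by 1.34 (SE 0.10, adjusted p = 5.28e-06), with readings of 558 and 511 with siRNA-1, against 1213 to 1540.4 over the 8 compound arrays (median 1337). WARS, at 1198 and 1089 with siRNA-1, against 2144 to 2577 with the compounds, had log2 -1.07 (SE 0.10, adjusted p = 3.66e-05). Log2 differences were -0.92 for MARS, -0.88 for YARS, -0.75 for IARS and -0.73 for GARS. They were -0.69 for EPRS, -0.59 for AARS and -0.48 for LARS, with adjusted p from 0.000123 to 0.00405 over these 7. Both siRNA-1 arrays lay below all 8 compound arrays in 11 of the 18 cytosolic genes, the 9 called ones with NARS and TARS, and in 17.4% of all genes. The AARS call was lost without siRNA-1 replicate 2 and the LARS call without siRNA-1 replicate 1. Both comparisons share the siRNA-1 arrays, and time and transfection differ here too.

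Of the mitochondrial genes 2 of 16 were higher in this comparison and none lower, close to the 10.9% of all genes called higher, with a median of 0.01, the same as over all genes. Both siRNA-1 arrays lay above all 8 compound arrays in 6 of the 16 and below them in 0. The share of all genes above is not given here. AARS2, for alanine, read 389 and 319.6 with siRNA-1, against 233 to 293 with the compounds (log2 0.44, SE 0.13, adjusted p = 0.0313). FARS2, for phenylalanine, read 626 and 599 with siRNA-1, against 463 to 536 with the compounds (log2 0.30, SE 0.09, adjusted p = 0.036). The groups did not overlap in either gene, yet against control the 2 genes had 0.30 (adjusted p = 0.276) and -0.03 (adjusted p = 0.918). AARS2 kept its call in 12 and FARS2 in 6 of 21 alternatives. The FARS2 call was lost on leaving out any of the 10 arrays (log2 0.25 to 0.37 over all alternatives). The AARS2 call (0.30 to 0.58) was lost without either siRNA-1 array, compound 1 replicate 2 at 1 μM or replicate 1 at 5 μM, and compound 2 replicate 1 at 2 μM or replicate 2 at 10 μM. YARS2 with siRNA-1 was close to the compounds (log2 -0.07, 95% interval -0.29 to 0.15, adjusted p = 0.682).

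Genes that work with the synthetases were taken from lists fixed with earlier results known, and are described by their counts. Among 15 regulators and targets of the amino acid response 12 were called lower with siRNA-1 and none higher, with a median of -1.03. Of all genes 5.86% were called lower and 5.99% higher. TRIB3, a pseudokinase gene that ATF4 induces, had 622 and 529 with siRNA-1, against 2798 and 4171 in control (log2 -2.57, adjusted p = 7.43e-06). ASNS, which makes asparagine, had 1779.9 and 1614 with siRNA-1, against 9545 and 10226 in control (log2 -2.54, adjusted p = 3.42e-07). Both genes were far below control without overlap, and ATF3 (-1.66) and NUPR1 (-1.65), which code for stress-induced transcription regulators, followed. ATF4 itself, named after its values were seen, had 3634 and 3538 with siRNA-1, against 6879 and 7839 in control (log2 -1.03, SE 0.17, adjusted p = 0.00221). Against the mean of the compounds 13 of the 15 were called lower, where 11.8% of all genes were, and ATF4 had -0.97 (adjusted p = 0.000499).

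With compound 1 at 1 μM 2 of the 15 were called lower, where 2.02% of all genes were. With compound 2 at 2 μM 1 was called lower, where 1.29% of all genes were. None of the 15 was called higher with a compound. TRIB3 was called lower with compound 1 at 1 μM (-0.79, adjusted p = 0.0267) and compound 2 at 2 μM (-0.83, adjusted p = 0.0304). DDIT3, the gene of the stress factor CHOP, was lower with compound 1 at 1 μM (-0.57, adjusted p = 0.0333). No gene of the list was called at 5 or 10 μM, where 0.474% and 0.799% of all genes were called lower. TRIB3 had -0.58 and -0.70 at these doses (adjusted p = 0.103 and 0.0501). ATF4 had -0.09, 0.07, -0.11 and -0.14 with compound 1 at 1 and 5 μM and compound 2 at 2 and 10 μM, and none of these was called.

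Of 8 tested genes for tRNA export, maturation and proofreading 2 were called lower with siRNA-1 and none higher (median -0.17). Of all genes 5.86% were called lower and 5.99% higher. XPOT, the exporter of tRNA from the nucleus, had 190.2 and 166 with siRNA-1, against 401 and 417 in control (log2 -1.20, SE 0.14, adjusted p = 0.000243). DTD1, a deacylase that clears D-amino acids from tRNA, had 744 and 703 with siRNA-1, against 1535 and 1151 in control (log2 -0.88, SE 0.14, adjusted p = 0.00201). Neither gene overlapped with control, and neither was called with a compound. No gene of this list was called with a compound, yet all 8 lay below 0 in each compound group. List medians over control were -0.32 and -0.33 for the lower and higher dose of compound 1. For compound 2 they were -0.35 and -0.25. Against the mean of the compounds XPOT and DTD1 were again called lower with siRNA-1, and 2 others of the list higher. The latter were DTD2 (log2 0.67, detected on 4 of 12 arrays) and ELAC2 (0.49). With siRNA-1 these had 0.16 and 0.05 against control. Over the compound groups DTD2 had -0.58 to -0.46 and ELAC2 -0.48 to -0.41 against control. Of all genes 11.8% were called lower and 10.9% higher with siRNA-1 against the mean of the compounds. Of 5 elongation factor 1 genes, which bring charged tRNA to the cytosolic ribosome or recharge the factor with GTP, 1 was lower with siRNA-1. It was EEF1D (-0.54, adjusted p = 0.0195), where 5.86% of all genes were called lower. EEF1A2, which codes for a tissue-restricted form of the factor, was instead called higher with compound 1 at 1 μM (0.85) and with compound 2 at either dose (0.90 and 0.87). For EEF1A1 the brightest probe had log2 0.04 with siRNA-1 against control, but its weakest probe differed. That probe read 351 and 363 with siRNA-1, 769 and 536 in control, and 1139 to 1287 with the compounds. Its fit is not given here. Of 11 tested genes for mitochondrial charged tRNA and translation 1 was called lower with siRNA-1 and 10 were not called, beside the same 5.86% of all genes. It was TUFM, the mitochondrial elongation factor Tu (log2 -0.81, adjusted p = 0.00298). TUFM read 699 and 607 with siRNA-1, against 1038 and 1251 in control. Against the mean of the compounds TUFM was again called lower with siRNA-1, and MTFMT higher. MTRF1 was called higher with compound 2 at 10 μM, where 2.95% of all genes were. The scaffold proteins of the multi-synthetase complex gave no value, as the 1 annotated probe, for AIMP1, was at background.

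**Figure D4:**
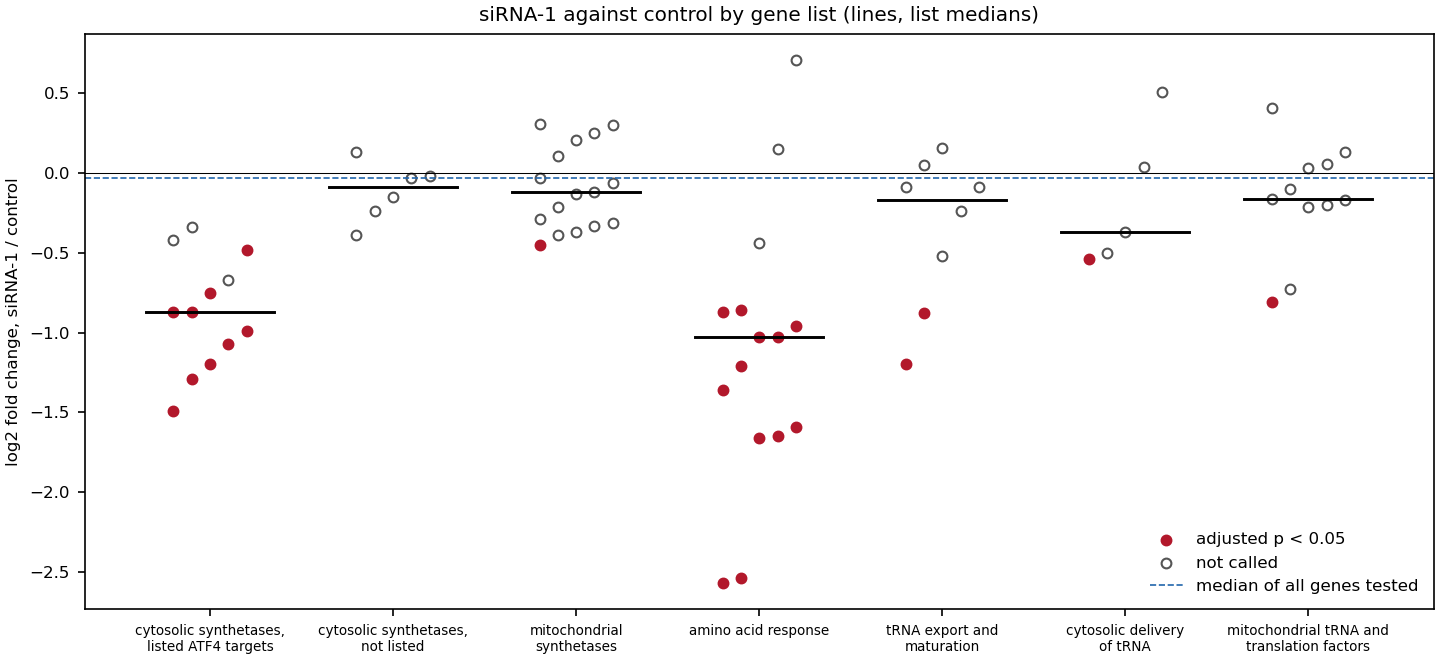
Log2 fold change with siRNA-1 over control of each tested gene (points, red where the adjusted p is below 0.05) in 7 gene lists, with the list median (black line) and the median of all genes tested (dashed, -0.03). The listed ATF4 target synthetases (median -0.87) and the amino acid response genes (median -1.03) lie lowest, while the other cytosolic (-0.09) and the mitochondrial synthetases (-0.12) lie near 0.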

How the data were processed

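The intensity values deposited by the authors are linear bead signals from BeadStudio (version not given in the sources used here), background-subtracted and not normalized. The detection p-values deposited by the authors stand in another line order than the signals (rank correlation -0.0041 to 0.0029) and were assigned by rank within each array. The authors' deposited log2 values served as an alternative. Of 47324 lines 2 damaged ones were dropped. Of the 47322 probes left, 30113 have 1 annotated symbol, 8 several and 17201 none.

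Background was modelled with normexp (limma 3.58.1, R 4.3.3, offset 16). Log2 signals were then shifted to a common median over 11804 probes with a detection p below 0.01 throughout. Testing took 17892 probes whose detection p was below 0.05 on both replicates of some group. The limma model held 6 group means over 12 arrays, with 6 residual and 5.58 prior degrees of freedom, and p-values were adjusted within each comparison (Benjamini-Hochberg). The model was tested on simulated data. Median array signal was 9.9 to 14.9, with 34.0% to 36.6% of probes detected, and the number of arrays limits the precision. P-values measure the spread between arrays of a group, which may be technical.

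All 36 genes are accounted for. Each is represented by its brightest tested probe, and single arrays are given for every called gene. From other lists at most 4 called genes are named, and ATF4 and DDIT3 are named outside this rule. Members and lists were chosen with earlier results of these data known. Alternatives were no background correction, an offset of 50, another centring, quantile normalization, no or stricter detection filters, the deposited log2 values, fits to the compared groups, a replicate block, the mean of a gene's probes, and leaving out each array. Plots used Python 3.11.15, pandas 2.3.3 and matplotlib 3.10.9.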

Additional observations from a re-analysis of the deposited data

How the results depend on the processing

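The count of 9 cytosolic genes lower with siRNA-1 than control was 8 or 9 under the 11 alternatives that kept all arrays and 8 when any array was left out, the gene lost each time being LARS. Against the mean of the compounds 9 to 11 were lower with all arrays and 8 to 11 on leaving out an array. With FARSA, called higher (log2 0.32) without compound 2 replicate 1 at 2 μM, the calls in either direction ran from 8 to 12. The 1 mitochondrial call (YARS2) gave 0 without background correction or a detection filter, with quantile normalization, with centring on all probes, with the deposited log2 values and a fit to the 2 groups only, and 0 to 1 on leaving out an array. The 2 mitochondrial calls against the compounds became 4 higher with an offset of 50 and with a fit to the compared groups only, 5 with detection on all 12 arrays (4 higher, and CARS2 lower, log2 -0.34), 1 without background correction or without a detection filter, and 0 with centring on all probes or the deposited values. They were 0 to 2 on leaving out an array, and the 2 without compound 2 replicate 2 at 10 μM were other genes, CARS2 (lower, -0.40) and LARS2 (higher, 0.36). With compound 2 at 10 μM 1 mitochondrial gene (YARS2, lower) was called with an offset of 50 and with detection on all 12 arrays. Without control replicate 1 compound 2 had 1 cytosolic gene lower at 2 μM (GARS, log2 -0.56) and 1 mitochondrial gene lower at each dose (MARS2 and YARS2), so that these counts ran from 0 to 1. No called log2 fold change changed sign. Replicate numbers did not mark paired samples (deviations of same-numbered arrays correlated at -0.38 to 0.21). The deposited tables number the 2 arrays of compound 2 at 10 μM in opposite ways, and the numbers of the signal table were used. With the other numbering, tried after the data were seen, the correlations were -0.38 to 0.17 and the replicate block gave the same 4 counts as below. With the replicate block 9 cytosolic genes were called with siRNA-1 against control and 9 against the compounds, 0 mitochondrial genes against control and 1 against the compounds. Centring on all probes raised the median of all probes by 0.12, 0.11 and 0.12 with compound 1 at 1 and 5 μM and compound 2 at 2 μM, and by 0.05 with siRNA-1. Set medians with the compounds also moved by over 1.5 times without compound 2 replicate 1 or 2 at 2 μM (mitochondrial, -0.23 and -0.06) and without its replicate 2 at 10 μM (cytosolic, -0.12). They did so with quantile normalization (cytosolic, -0.12 with compound 1 at 1 μM and -0.11 with compound 2 at 10 μM). With the deposited values these 2 groups had -0.11 and -0.12 for cytosolic and -0.06 each for mitochondrial genes, and siRNA-1 had a mitochondrial median of -0.07. With 2 arrays a group the median half-width of the 95% interval against control was 0.28 for cytosolic and 0.30 for mitochondrial genes on the log2 scale.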
